A study of Rattus norvegicus with 6 samples.

Results

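The genes described here are 40 enzymes and regulators of glutathione, thioredoxin and antioxidant defence, chosen by name, of which 35 were found by symbol among the 23091 genes of the deposited table. The other 5, the selenoprotein genes Gpx1, Gpx3, Gpx4, Txnrd1 and Txnrd2, are not analysed here. Messenger RNA was measured in mesenchymal stem cells from rat marrow, which are stromal cells that grow attached to plastic. All were labelled wild type (WT) and spent 7 days in a medium meant for neural differentiation. The 3 CYSP samples had CYSP in that medium, a treatment whose name the labels do not spell out, and the 3 CK samples had the solvent DMSO in it. The labels give neither the animals' strain, age or number nor whether the samples are separate cultures, so p-values here reflect only how far these samples scatter, which could be technical variation.

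Cells remove superoxide with superoxide dismutases, which turn it into hydrogen peroxide, and remove peroxides with catalase, glutathione peroxidases and peroxiredoxins. Glutathione, a small thiol peptide made from cysteine, and thioredoxin, a small thiol protein, supply the reducing power and are themselves kept reduced with NADPH. Many of these genes carry antioxidant response elements and are switched on by the transcription factor NRF2 (gene Nfe2l2), which KEAP1 otherwise marks for degradation, so NRF2 is largely controlled at the protein level.

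Most of these genes were higher in CYSP, and the largest increases were in enzymes that modify foreign or reactive molecules. Of the 35 genes found, all 35 passed the count filter and were tested, 27 rose, 6 fell and 2 were not called (edgeR quasi-likelihood test, adjusted p threshold 0.05 over 12623 genes). Among all genes tested 38.2% were higher and 37.8% lower by the same rule, 76.1% in either direction, so passing the test is the common case here. The direction was less evenly split among the named genes, with 77.1% higher and 17.1% lower. These genes were chosen with earlier results of these data known, so the comparison with all genes is a description only. Their median log2 fold change was 0.81, against 0.0046 over all genes tested. With the added demand that a gene change by 1 or more on the log2 scale, 16 were higher and 2 lower, where 15.2% and 12.7% of all genes were. The CYSP and CK samples did not overlap in CPM (counts scaled to library size, with TMM factors) for 32 of the 35, beside 76.9% of all genes. The size of the change varied: 13 of the 35 changed by less than 0.5 on the log2 scale, as did 47.6% of all genes tested. A rise of 3 or more was seen in 4 of the 35 and in 4.14% of all genes tested.

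The libraries held 15060900 to 17244700 counts each. Samples correlated at 0.991 to 0.992 within a group and 0.813 to 0.816 between groups (Pearson r of log2 CPM across genes, which are not independent replicates). The common biological coefficient of variation was 0.0393. Each list of cell type markers was also summed without the gene that differed most in CPM, a choice made after seeing the data. Marrow stromal markers were present in both groups, with 6 of the 12 higher and 5 lower. Their summed level was 13279 to 14147 CPM in CYSP and 44617 to 46441 CPM in CK, and without Col1a1, a collagen gene, it was 4063 to 4116 CPM in CYSP and 4661 to 4699 CPM in CK. Of 12 macrophage and leukocyte markers 9 were lower and Cd163, a scavenger receptor, was higher, with 761 counts summed over CYSP and 2 over CK, while Cd14 and Fcgr2b were not called. Their sum was 565 to 568 CPM in CYSP against 1724 to 1961 CPM in CK, and 456 to 463 CPM in CYSP against 899 to 1029 CPM in CK without Lyz2, lysozyme. Fat-cell markers summed to 606 to 638 CPM in CYSP and 75.3 to 82 CPM in CK, nearly all of the gap from Adipoq, the hormone adiponectin, at 519 CPM in CYSP and 0.199 CPM in CK. Without Adipoq the sums were 99.4 to 106 CPM in CYSP and 75.3 to 81.5 CPM in CK, with Lpl higher, Fabp4 lower, Pparg not called, Cidec at no count in any sample and Plin1 at none in CYSP. Neuron markers summed to 87 to 91.5 CPM in CYSP and 14.6 to 15.1 CPM in CK, and without Snap25 to 39.1 to 44.6 CPM in CYSP and 14.5 to 15.1 CPM in CK. Most of the sum without Snap25 was Tubb3, at 37.8 CPM in CYSP and 8.66 CPM in CK. Of the 4 neuron markers tested 2 were higher and 2 lower, and Rbfox3 and Elavl4 had no count. Map2 averaged 1.35 CPM in CYSP and 4.27 CPM in CK, and Dcx had 3 counts summed over CYSP and 79 over CK. Endothelial markers, 2 of 4 tested higher and 2 lower with Emcn at no count, summed to 3.92 to 4.98 CPM in CYSP and 6.04 to 6.84 CPM in CK, an order that turned round without Tie1, at 2.57 to 4.09 CPM in CYSP and 1.51 to 2.32 CPM in CK. In bulk samples fewer cells of a type and less RNA per cell cannot be told apart, and the part of these cell types in the results was not tested.

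**Figure D1:**
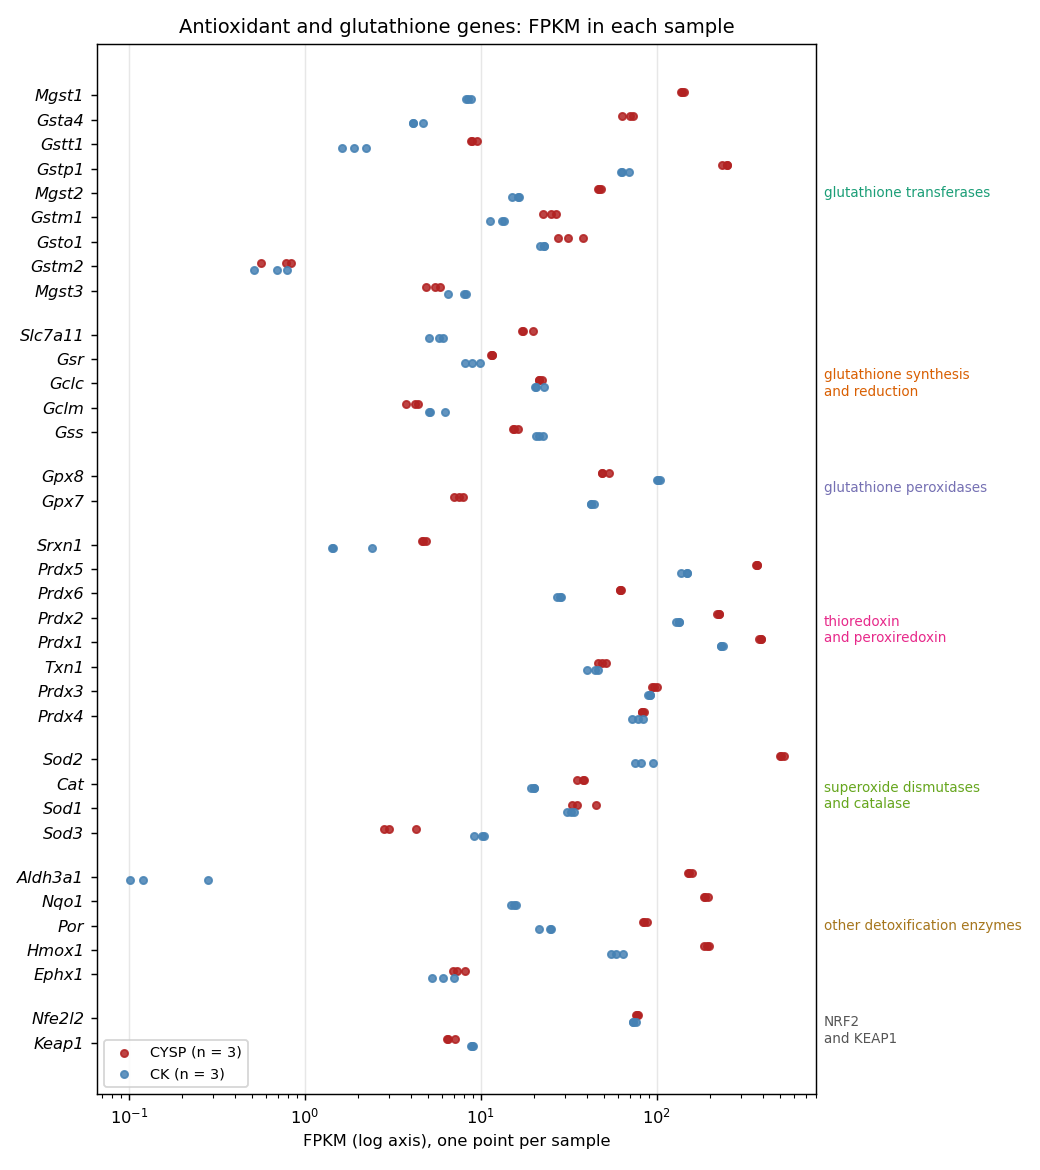
FPKM (fragment count scaled to transcript length and library depth) of each gene on a log axis, 1 point per sample, CYSP in red and CK in blue, rows grouped by role. Aldh3a1 shows the widest gap, with 150.5 to 158 FPKM in CYSP and 0.101 to 0.28 FPKM in CK, while the Nfe2l2 points of both groups lie between 73.5 and 78 FPKM.

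The levels per transcript length place some of these genes among the abundant ones, while others were low. Among all genes Gstm2 stood at rank 11409 in CYSP, and Aldh3a1 at rank 12670 in CK. On the FPKM scale Sod2, the mitochondrial superoxide dismutase, was the highest of the 35 in CYSP, with a mean of 513 FPKM, and rank 110 of all 23091 genes. In CK the highest was Prdx1, a cytosolic peroxiredoxin, with a mean of 234 FPKM, and Sod2 stood at rank 6 of the 35. Prdx1 and Prdx5 took ranks 2 and 3 in CYSP, and Prdx5 and Prdx2 ranks 2 and 3 in CK. Aldh3a1 stood at rank 8 in CYSP and at rank 35, the lowest, in CK. Nqo1 stood at rank 7 in CYSP and rank 21 in CK, and Mgst1 at rank 9 in CYSP and rank 26 in CK. Of the 34 pairs of neighbours in the order of levels, 10 overlapped between samples in CYSP and 15 in CK. The summed FPKM of the 35 genes was 3251 to 3312 in CYSP and 1400.1 to 1453 in CK. The FPKM values of all genes together also summed higher in CYSP, to between 464894 and 468133 against 395003 to 399288 in CK.

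**Figure D2:**
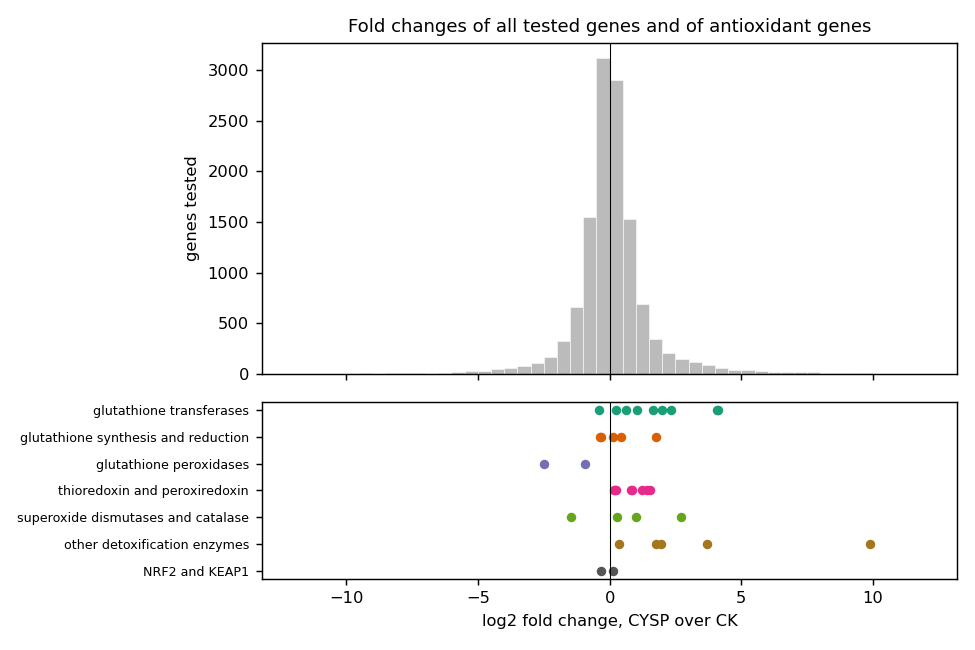
Log2 fold change (CYSP over CK) of all 12623 genes tested as a histogram in steps of 0.5, and below it the 35 antioxidant and glutathione genes as points by role. The points of the glutathione transferases and other detoxification enzymes reach far to the right, up to 9.89 for Aldh3a1, while the 2 glutathione peroxidases lie left of 0.

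The promoters of a few of these genes are shown because a sequence of the antioxidant response element type, TGACNNNGC on either strand, was found in windows of genes that rose and of a gene that fell. RefSeq windows (build GRCr8, 250 bases before to 50 after a start) exist for 32 of the 40 genes. Aldh3a1 and Hmox1 are among the genes without one. For Mgst1, Gsta4, Nqo1 and Slc7a11, which also rose, there was no window or no match to this motif. The motif was present in 9 of these 32 and in 12.1% of all 33469 windows. It was in 7 of the 21 genes with a window that rose and in 1 of the 4 that fell. A gene counted if any of its windows matched, and 3 of the 32 had more than 1 window. The share of all windows is counted per window, so it is not a like measure. It overlaps the AP-1 type motif TGACTCA where the variable letters allow it, as in Gstp1, Prdx1 and Ephx1. TGACTCA on either strand was in 5 of the 32 genes, counted in the same way, and in 4.63% of all windows. The matched letters are in capitals below, 5′ to 3′ on the gene's strand, with the first matched base 61 bases before the start in Gstp1 (chr1:210769656-210769955, minus strand), 135 before it in Prdx1 (chr5:135383656-135383955, plus strand), 35 before it in Sod2 (chr1:50050119-50050418, minus strand) and 172 before it in Gclm (chr2:213031885-213032184, plus strand).
Gstp1: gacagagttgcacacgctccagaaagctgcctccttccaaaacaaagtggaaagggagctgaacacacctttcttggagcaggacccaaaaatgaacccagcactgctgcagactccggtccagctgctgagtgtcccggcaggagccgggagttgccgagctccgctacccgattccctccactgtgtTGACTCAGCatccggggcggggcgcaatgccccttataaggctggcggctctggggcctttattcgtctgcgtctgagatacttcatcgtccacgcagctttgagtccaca
Prdx1: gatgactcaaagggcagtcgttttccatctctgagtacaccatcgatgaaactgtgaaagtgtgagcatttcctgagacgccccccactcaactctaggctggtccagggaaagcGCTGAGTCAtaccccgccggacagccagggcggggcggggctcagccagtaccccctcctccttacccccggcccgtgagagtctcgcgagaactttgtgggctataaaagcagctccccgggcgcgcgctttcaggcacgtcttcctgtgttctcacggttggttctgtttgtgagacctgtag
Sod2: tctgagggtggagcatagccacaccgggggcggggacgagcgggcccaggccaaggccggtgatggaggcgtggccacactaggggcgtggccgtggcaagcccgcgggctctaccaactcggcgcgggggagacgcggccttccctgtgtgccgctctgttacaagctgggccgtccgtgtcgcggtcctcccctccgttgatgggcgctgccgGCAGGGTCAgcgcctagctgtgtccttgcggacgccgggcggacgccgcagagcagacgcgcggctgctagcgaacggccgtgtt
Gclm: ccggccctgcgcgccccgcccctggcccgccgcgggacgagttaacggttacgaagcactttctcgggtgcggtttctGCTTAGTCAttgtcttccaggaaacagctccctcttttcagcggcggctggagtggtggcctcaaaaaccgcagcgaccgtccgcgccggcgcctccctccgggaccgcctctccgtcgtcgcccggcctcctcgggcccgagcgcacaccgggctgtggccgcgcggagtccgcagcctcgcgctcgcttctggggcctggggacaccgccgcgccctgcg
A match describes these letters in this window and is not evidence of binding. The first 3 of these genes rose and Gclm fell, with the values given by role below.

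Glutathione transferases, which join glutathione to reactive molecules, rose in 7 of 9 cases, and none fell. Their summed level was 565 to 590 FPKM in CYSP, against 136 to 144 FPKM in CK, a ratio of 4.12 between the means. Their median log2 fold change was 1.65. Mgst1, a membrane-bound transferase and peroxidase of the endoplasmic reticulum and mitochondria, had 139.7, 142 and 137 FPKM in the CYSP samples, against 8.49, 8.22 and 8.76 FPKM in the CK samples. No CYSP sample was near a CK sample, and the log2 fold change was 4.12 (SE 0.068, edgeR adjusted p = 2.82e-63). Gsta4, an alpha-class enzyme known for removing the lipid peroxidation product 4-hydroxynonenal, had 70.4, 63.7 and 73 FPKM in CYSP and 4.11, 4.72 and 4.13 FPKM in CK. Its log2 fold change of 4.09 (SE 0.097, edgeR adjusted p = 3.45e-52) was close to that of Mgst1.

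Gstp1, the pi-class transferase, was the most abundant of these enzymes in both groups, with 236, 250 and 251 FPKM in CYSP against 63.6, 62.8 and 69.9 FPKM in CK. Its log2 fold change was 1.99 (SE 0.045, edgeR adjusted p = 8.96e-54), yet its share of the summed transferase FPKM was 42.8% in CYSP and 46.9% in CK. Mgst1 and Gsta4 made up 24.3% and 12% of that sum in CYSP, against 6.1% and 3.1% in CK. Gsto1, the omega-class enzyme, contributed 5.6% in CYSP and 16.1% in CK, although it too rose (log2 fold change 0.60, SE 0.079). Its FPKM is less even than its counts: CYSP 3 had 38.3 FPKM against 31.5 and 27.6 FPKM in the other CYSP samples, while its CPM of 34.9 lay between their 35.1 and 31.5. Gstt1, of the theta class, rose by 2.33 (SE 0.20), Mgst2, which also conjugates leukotriene precursors, by 1.65 (SE 0.092) and Gstm1, of the mu class, by 1.05 (SE 0.089).

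The 2 transferases that did not pass were low. Gstm2 had 0.838, 0.784 and 0.563 FPKM in CYSP and 0.69, 0.513 and 0.792 FPKM in CK, with overlapping samples (edgeR adjusted p = 0.627). Mgst3 had 4.86, 5.85 and 5.5 FPKM in CYSP against 8.04, 8.18 and 6.55 FPKM in CK, a log2 difference of -0.41 (SE 0.20, edgeR adjusted p = 0.0548), and it passed the test as lower under 5 of the alternatives, with adjusted p between 0.00256 and 0.0444. Mu-class and alpha-class transferases are similar in sequence, and reads shared among them could have been split by the authors' counting. Gstp1 and Gsta4 stand on 3 identifiers each in the table, the unused ones with 0 and 3 counts in all. Prdx1 stands on 4, the others with 0 counts.

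**Figure D3:**
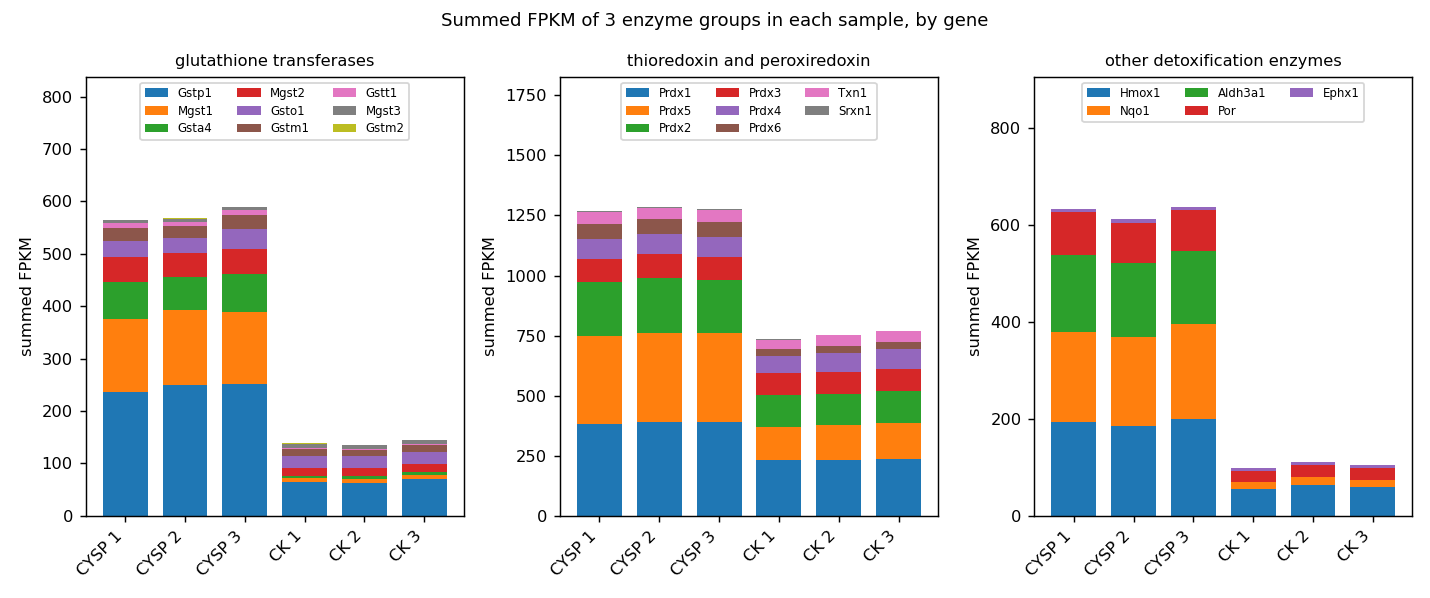
Summed FPKM per sample of the glutathione transferases, the thioredoxin and peroxiredoxin genes and the other detoxification enzymes, stacked by gene, CYSP samples left of CK samples. The transferase stacks reach 565 to 590 FPKM in CYSP and 136 to 144 FPKM in CK, with Mgst1 and Gsta4 taking larger shares in CYSP.

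The genes that make and recycle glutathione moved little, apart from the cystine importer. Of the 5, 3 rose and 2 fell, and the median log2 fold change was 0.12. Slc7a11, the light chain of the cystine and glutamate exchanger that brings in the cysteine for glutathione, had 17.1, 19.8 and 17.3 FPKM in CYSP against 6.12, 5.79 and 5.1 FPKM in CK. The groups stood well apart, and the log2 fold change was 1.77 (SE 0.065, edgeR adjusted p = 2.43e-38). Gclc, the catalytic subunit of glutamate-cysteine ligase, which carries out the rate-limiting step, had 21.5, 22.1 and 21.5 FPKM in CYSP and 20.2, 20.5 and 22.7 FPKM in CK. The samples overlapped, and its log2 fold change of 0.12 (SE 0.054, edgeR adjusted p = 0.0382) lost its call under 11 of the 18 alternatives other than a limit on fold change, among them DESeq2 (adjusted p = 0.0857) and library-size scaling (0.532), and without CK 1 (0.196), CK 2 (0.145), CYSP 1 (0.0567) or CYSP 2 (0.0924).

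Gclm, the modifier subunit of the same ligase and a widely used NRF2 target, was lower, with 4.23, 4.39 and 3.75 FPKM in CYSP against 5.15, 5.09 and 6.27 FPKM in CK. Its log2 fold change of -0.33 (SE 0.15, edgeR adjusted p = 0.0431) lost its call under 8 of the same 18 alternatives, among them DESeq2 (0.0918) and limma-voom (0.0516), and without CK 3 (0.223), CYSP 1 (0.0584) or CYSP 3 (0.147), and with replicate numbers blocked (0.0555). Gss, glutathione synthetase, had 15.2, 16.2 and 15.5 FPKM in CYSP and 21.3, 22.7 and 20.5 FPKM in CK, and fell by 0.38 on the log2 scale (SE 0.070, edgeR adjusted p = 1.66e-06). Gsr, the reductase that regenerates glutathione with NADPH, rose by 0.44 (SE 0.083), with 11.4 to 11.5 FPKM in CYSP and 8.1 to 9.84 FPKM in CK.

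The 2 glutathione peroxidases found fell, and the 3 selenium-containing ones on the list are not analysed here. Gpx7 and Gpx8 have cysteine in place of selenocysteine and sit in the endoplasmic reticulum, where they use hydrogen peroxide in protein folding. Gpx7 had 7.96, 7.05 and 7.48 FPKM in CYSP against 42.4, 42.2 and 44.2 FPKM in CK. It was the gene of the 35 with the largest decrease, at a log2 fold change of -2.51 (SE 0.087, edgeR adjusted p = 6.18e-41). Gpx8 had 48.9, 53.4 and 48.7 FPKM in CYSP against 99.7, 102 and 104 FPKM in CK (log2 fold change -0.94, SE 0.051, edgeR adjusted p = 1.69e-28). In both genes the groups were well separated.

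All 8 thioredoxin and peroxiredoxin genes found rose, by a median of 0.82 on the log2 scale, and Txnrd1 and Txnrd2 are not analysed here. Peroxiredoxins reduce peroxides through a reactive cysteine and are recharged mostly by thioredoxin. Prdx5, found in mitochondria, peroxisomes and cytosol, had 368, 373 and 370 FPKM in CYSP against 137, 148 and 148 FPKM in CK (log2 fold change 1.43, SE 0.036, edgeR adjusted p = 3.36e-50). Prdx6, which uses glutathione and has phospholipase activity, had 62.8, 62.1 and 62 FPKM in CYSP and 27, 28.1 and 28.5 FPKM in CK, a log2 fold change of 1.25 (SE 0.040). The cytosolic Prdx1 and Prdx2 rose by similar amounts, 0.81 (SE 0.032) and 0.83 (SE 0.038). Prdx1 had 382, 390 and 392 FPKM in CYSP against 232, 230 and 238 FPKM in CK.

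The mitochondrial Prdx3 and the endoplasmic reticulum Prdx4 differed much less. Prdx3 had 94.5, 101 and 95.8 FPKM in CYSP and 89.7, 91.9 and 90.9 FPKM in CK (log2 fold change 0.19, SE 0.043, edgeR adjusted p = 6.18e-05). Prdx4 had 82.2, 82.5 and 84.5 FPKM in CYSP and 72.5, 78.1 and 83.8 FPKM in CK, samples that overlap on this scale. Its log2 fold change of 0.17 (SE 0.052, edgeR adjusted p = 0.0023) lost its call in 5 of the 18 alternatives, among them library-size scaling (0.117), log2(FPKM + 1) with limma-trend (0.121) and the fit without CK 1 (0.0581). Txn1, cytosolic thioredoxin, had 49, 46.5 and 51.2 FPKM in CYSP and 40.3, 44.7 and 46.2 FPKM in CK, a log2 fold change of 0.25 (SE 0.069). Srxn1, sulfiredoxin, which repairs overoxidised peroxiredoxins, was low, with 4.67, 4.88 and 4.64 FPKM in CYSP against 1.43, 2.4 and 1.45 FPKM in CK (log2 fold change 1.51, SE 0.28, edgeR adjusted p = 1.69e-06). Its counts were few, 163 over the CYSP group and 62 over the CK group, and its standard error was the largest of this group.

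The superoxide dismutases differed among themselves. Sod2, the mitochondrial enzyme, had 500.1, 527 and 511 FPKM in CYSP against 81.1, 94.6 and 75.6 FPKM in CK. All CYSP samples lay far above all CK samples, and the log2 fold change was 2.70 (SE 0.093, edgeR adjusted p = 8.05e-06). Sod3, the extracellular enzyme, had 4.29, 3 and 2.82 FPKM in CYSP against 9.12, 10.5 and 10.2 FPKM in CK, a log2 fold change of -1.46 (SE 0.12, edgeR adjusted p = 1.12e-17). Sod1, the cytosolic enzyme, had 35.4, 32.8 and 45 FPKM in CYSP and 30.7, 32.7 and 33.9 FPKM in CK. Its groups overlapped, and CYSP 3 was the high sample. The log2 fold change of 0.28 (SE 0.090, edgeR adjusted p = 0.00443) came to 0.14 (adjusted p = 0.184) without CYSP 3. Sod1 lost its call in 4 of the 18 alternatives, also with all samples kept on log2(FPKM + 1) with limma-trend (0.088). Cat, the peroxisomal catalase, had 35.3, 38.3 and 38.6 FPKM in CYSP against 20, 19.2 and 19.9 FPKM in CK and rose by 1.01 (SE 0.053).

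The other detoxification enzymes all rose, with the largest change in Aldh3a1. Their summed level was 612 to 636 FPKM in CYSP and 98.3 to 110 FPKM in CK, a ratio of 6.00 between the means. Aldh3a1, an aldehyde dehydrogenase known from the cornea and from liver exposed to dioxin-type compounds, had 5275, 4516 and 4449 counts in CYSP against 4, 3 and 9 counts in CK. The ratio from these counts was 973 (95% Clopper-Pearson interval 599 to 1703, counting error only). By log2 fold change, 9.89, it stood at rank 14 among all genes tested, counted from the largest increase (edgeR adjusted p = 2.49e-79). Its standard error, 0.096, is far narrower than this counting interval and understates the uncertainty, as CK had only 16 counts in all.

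Nqo1, a quinone reductase and a standard NRF2 target, had 187, 184 and 196 FPKM in CYSP against 14.8, 15.4 and 15.8 FPKM in CK (log2 fold change 3.71, SE 0.048, edgeR adjusted p = 1.16e-70). Por, the reductase that passes electrons from NADPH to cytochrome P450 enzymes, had 88.1, 83.5 and 84.4 FPKM in CYSP and 21.3, 24.9 and 24.7 FPKM in CK, a log2 fold change of 1.94 (SE 0.045). Hmox1, haem oxygenase 1, which breaks down haem, had 192, 184 and 199 FPKM in CYSP and 55.1, 64.3 and 58.3 FPKM in CK, a log2 fold change of 1.78 (SE 0.041). Hmox1 is also strongly expressed by macrophages, and of the 12 macrophage and leukocyte markers 9 were lower, 2 were not called and 1, Cd163, was higher. Their part in the Hmox1 result was not tested. Ephx1, microsomal epoxide hydrolase, had 7.35, 8.14 and 6.98 FPKM in CYSP and 7.04, 5.31 and 6.12 FPKM in CK. The samples of Ephx1 overlapped in FPKM though not in CPM, and its log2 fold change of 0.36 (SE 0.12, edgeR adjusted p = 0.00551) lost its call without CK 2 (0.0635).

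**Figure D4:**
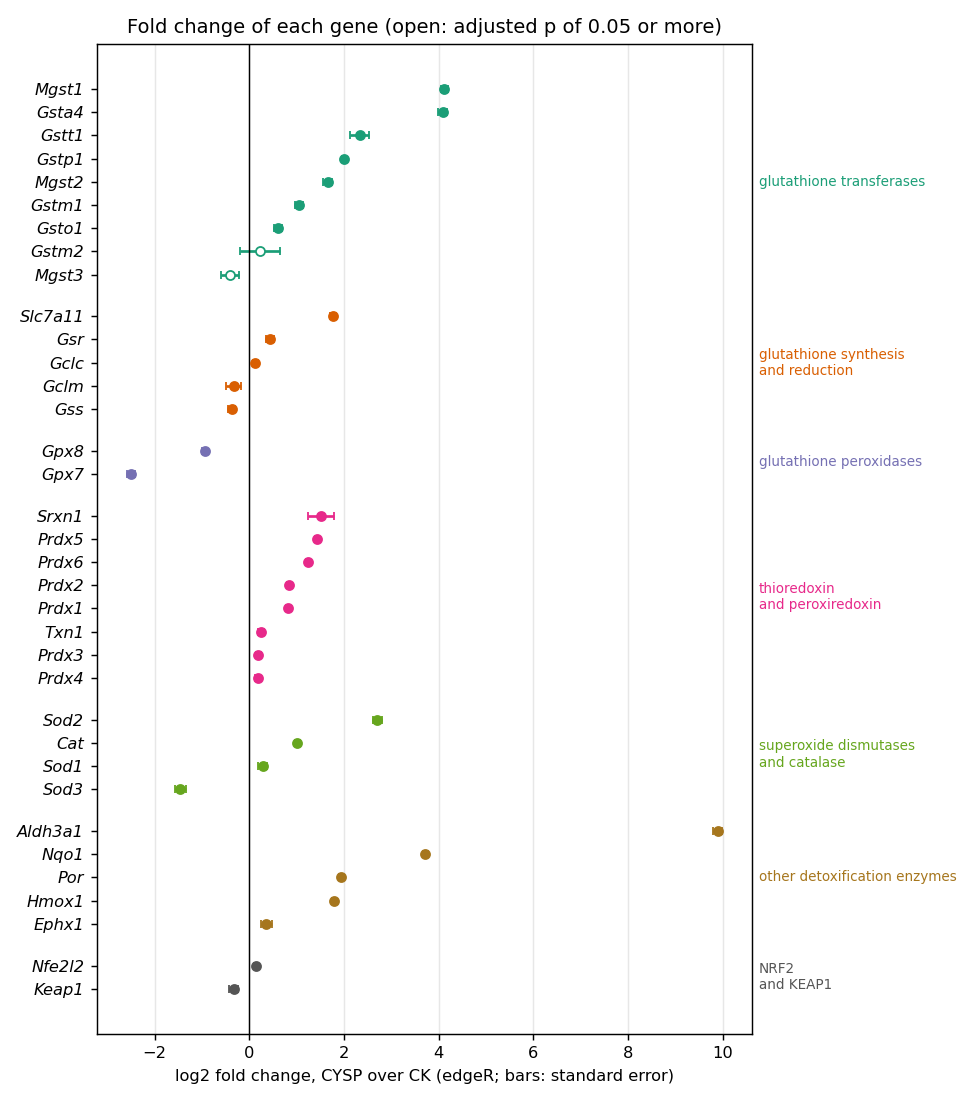
Log2 fold change (CYSP over CK) of each gene from edgeR with its standard error, by role, filled where the adjusted p was under 0.05. The bar of Aldh3a1 is too short, as that gene had few counts in CK. Aldh3a1 at 9.89, Mgst1 at 4.12, Gsta4 at 4.09 and Nqo1 at 3.71 lead, and Gpx7 at -2.51 and Sod3 at -1.46 are the lowest.

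The messenger RNA of NRF2 itself and of its partner KEAP1 differed little. Nfe2l2 had 77.7, 78 and 76.5 FPKM in CYSP and 76.3, 73.6 and 73.5 FPKM in CK. Its log2 fold change of 0.13 (SE 0.036, edgeR adjusted p = 0.000709) lost its call with library-size scaling (adjusted p = 0.196) and on log2(FPKM + 1) with limma-trend (0.137). Keap1 had 6.38, 6.49 and 7.1 FPKM in CYSP against 9.01, 8.93 and 8.76 FPKM in CK, without overlap, and fell by 0.33 on the log2 scale (SE 0.091, edgeR adjusted p = 0.000732). The summed FPKM of both genes was 83.6 to 84.5 in CYSP and 82.2 to 85.3 in CK. Of some genes usually counted as NRF2 targets, Nqo1, Slc7a11, Srxn1 and Hmox1 rose by 1.51 to 3.71, Gclm fell by 0.33 and Gclc differed by 0.12. The calls of Gclm and Gclc were lost under 8 and 11 of the 18 alternatives. The part of NRF2 in these results was not tested.

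The authors' deposited table gives its own adjusted p-values, and by those 26 of the 35 genes were under 0.05, with 20 higher and 6 lower. That is 74.3% of them, beside 66.7% of the 12623 genes tested here, both taken from the authors' deposited table. By the same values 3541 of the 12623 were higher and 4882 lower. The 9 at or above it in the authors' deposited table include Gclc (0.954), Nfe2l2 (0.971), Prdx4 (0.733), Prdx3 (0.548), Txn1 (0.369), Sod1 (0.356) and Ephx1 (0.295), all called above with log2 fold changes of 0.12 to 0.36. For the other 2, Mgst3 and Gstm2, the authors' deposited table gives 0.0622 and 0.89, on the same side as here.

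**Figure D5:**
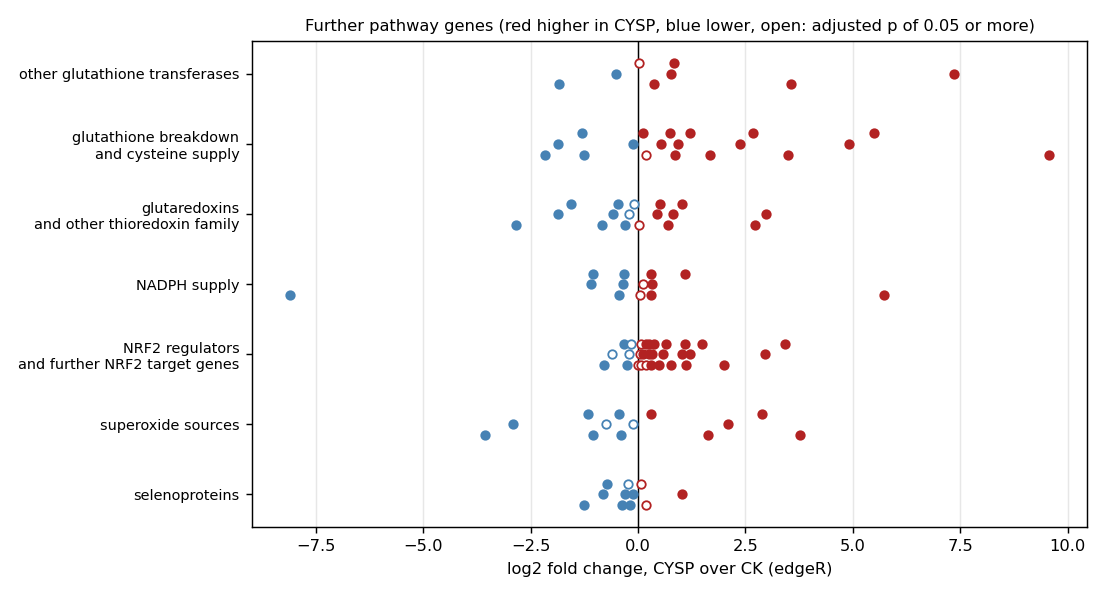
Log2 fold change (CYSP over CK) of the tested genes of 7 further lists, 1 point per gene, filled where the adjusted p was under 0.05, with small vertical offsets to separate points. The glutathione breakdown and cysteine supply list spans -2.18 to 9.58, and 19 of the 30 genes tested on the NRF2 list rose.

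Related pathway genes were counted from lists in the same way, beside the 38.2% higher and 37.8% lower of all genes. The lists too were chosen with earlier results of these data known. Some genes are counted more than once. Gclc, described above, is also on the breakdown and cysteine supply list, and Txn1 on the NRF2 list. Tkt, Pgd, Taldo1 and Me1 are on both the NADPH and the NRF2 list, and Txnrd3 on both the thioredoxin family and the selenoprotein list. Of 8 further glutathione transferases tested from 18 listed, 5 rose and 2 fell. Gstt3, of the theta class in rodents, had 964 counts summed over CYSP and 6 over CK, a count ratio of 176 (95% Clopper-Pearson interval 80.4 to 480). Gsta1 averaged 39.6 ± 1.94 CPM in CYSP and 3.35 ± 0.594 CPM in CK, whereas Gstm3, of the mu class, averaged 15 ± 0.822 CPM in CYSP and 54.2 ± 4.14 CPM in CK (SD, n = 3 each). Gstt2 rose by 0.83 on the log2 scale (SE 0.21).

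Among genes of glutathione breakdown and cysteine supply, 13 of 19 tested rose and 5 fell, and their median on the log2 scale was 0.86. Ggt1, the cell-surface enzyme that starts glutathione breakdown, rose by 3.50 (SE 0.088). Slc1a1, a glutamate and cysteine transporter, rose by 4.92, with 343 counts summed over CYSP and 12 over CK. Abcc4, an export pump that can carry glutathione conjugates, rose by 2.67 (SE 0.058). Cbs, which makes cystathionine on the way to cysteine, had 274 counts over the CYSP group and none in CK, at least 99.9-fold higher with 3 counts over the group as the floor. Chac1, which degrades glutathione inside the cell and is induced by the integrated stress response, fell by 2.18 on the log2 scale (SE 0.093). Slc3a2, the heavy chain partner of Slc7a11 in the cystine exchanger, was outside the naming rule and was chosen after its values were seen: it averaged 127 ± 3.86 CPM in CYSP against 313 ± 15.6 CPM in CK, the opposite direction to Slc7a11 (log2 fold change -1.30, SE 0.037, edgeR adjusted p = 1.77e-46).

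Glutaredoxins and other thioredoxin family genes were even, with 7 of 17 tested higher and 7 lower. Txnip, the inhibitor of thioredoxin, averaged 14.6 ± 0.719 CPM in CYSP and 106 ± 2.26 CPM in CK (SD, n = 3 each; log2 fold change -2.85, SE 0.064). Glrx, cytosolic glutaredoxin, rose by 2.72 (SE 0.069), and its symbol stands on 3 identifiers. Sesn3, a sestrin, rose by 2.97 (SE 0.055), and Msrb3, a methionine sulfoxide reductase, fell by 1.87 (SE 0.042). Of the 13 NADPH supply genes tested 5 rose and 6 fell, with Tkt, transketolase, at 1.09 (SE 0.032). The folate enzyme Aldh1l1 was at 5.72, with 693 counts summed over CYSP and 14 over CK, and its relative Aldh1l2 at -1.10 (SE 0.041). Me3, mitochondrial malic enzyme, had no count in CYSP and 107 over the CK group, at least 32.6-fold lower against the same floor.

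Of 30 tested NRF2 regulators and further NRF2 targets 19 rose, 3 fell and 8 did not pass, with a median log2 fold change of 0.28. Akr1b8, an aldo-keto reductase, averaged 288 ± 2.85 CPM in CYSP and 26.7 ± 2.24 CPM in CK, and Fth1, ferritin heavy chain, 5972 ± 65.4 CPM in CYSP and 776 ± 11.4 CPM in CK (SD, n = 3 each). Fth1 stands on 3 identifiers, so copies may share its reads. Osgin1 rose by 2.00 (SE 0.30) and the fatty aldehyde dehydrogenase gene Aldh3a2 by 1.49 (SE 0.050), while Ugdh, which makes UDP-glucuronate, fell by 0.78 (SE 0.045). The count of 3 lower became 5 without filter, on log2(FPKM + 1), or without any of the CYSP samples in turn.

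Enzymes that produce superoxide or peroxide were split, 5 of 13 tested higher and 6 lower. Aox1 and Xdh, the aldehyde and xanthine oxidases, rose by 3.76 (SE 0.23) and 2.89 (SE 0.067). Nox4, the NADPH oxidase of fibroblasts, fell by 3.57 (SE 0.34) and Ncf1, a subunit of the phagocyte oxidase, by 2.90 (SE 0.071), beside 9 of the 12 macrophage and leukocyte markers lower and Cd163 higher. On the list of selenoproteins and the factors that make them 15 of 30 genes were found and 11 tested, of which 1 rose and 7 fell. Txnrd3, a thioredoxin reductase, rose by 1.03 (SE 0.14). Selenom, a selenoprotein of the endoplasmic reticulum, fell by 1.26 (SE 0.090), and Sephs2 and Sephs1, homologues of selenophosphate synthetase, by 0.81 (SE 0.075) and 0.72 (SE 0.088). Without CYSP 3 the count of 1 higher became 2.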

How the data were processed

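RNA of 6 rat marrow mesenchymal stem cell samples was enriched on oligo(dT) beads, per the labels' protocols. The submitters' processing notes name fastp 0.18.0, HISAT2, StringTie 1.3.1 and RSEM without saying what each did. The genome build, annotation and counting tool, and whether counting used strand, were not given in the sources used here. The deposited table gives raw counts and FPKM for each gene and sample, and the authors' own log2 fold change of CYSP over CK with a p-value and its adjusted form, per the file headers.

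Groups came from the sample titles. Members were matched by symbol, taking the identifier with the largest count. The 40 members, their grouping by role and the further lists were chosen with earlier results of these data known. The whole table was tested with edgeR 4.0.16 in R 4.3.3 (filterByExpr, TMM, robust glmQLFit and glmQLFTest, Benjamini-Hochberg adjustment over 12623 genes, threshold 0.05). Standard errors come from the fold change and F statistic. They are too small where a large fold change rests on few counts in a group, as for Aldh3a1 in CK. The procedure was tested on simulated counts. From each further list, up to 4 called genes averaging 1 CPM or more, those that changed most, are named, plus the largest of the minority direction, with a selection of markers. Alternatives used DESeq2 1.42.0 and limma 3.58.1. Intervals and floors of 3 counts (0.174 to 0.199 CPM per sample) cover counting error only.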

Additional observations from a re-analysis of the deposited data

How the results depend on the processing

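No member changed direction in any of the alternatives tried, and 23 of the 35 kept their side of the threshold in the 18 that set no limit on fold change. Where a change of 1 or more on the log2 scale was also required, 1917 genes were higher and 1598 lower, and 16 members were higher and 2 lower: the members higher were 1 for glutathione synthesis and reduction, 3 for thioredoxin and peroxiredoxin and 0 for NRF2 and KEAP1, and the members lower were 0 for glutathione synthesis, 1 for glutathione peroxidases and 0 for NRF2 and KEAP1. With a coefficient of variation of 0.2 assumed, a choice made after seeing the data, 3102 genes were higher and 2801 lower, with 19 members higher and 3 lower, of them 1 higher and 0 lower in glutathione synthesis, 5 higher among thioredoxin and peroxiredoxin genes and 0 either way for NRF2 and KEAP1. The same assumption left 11 higher and 1 lower on the NRF2 list, 2 higher and 3 lower for NADPH supply, 1 lower among further transferases and 3 lower among selenoproteins. Mgst3 made the transferases lower 1 in place of 0 under upper quartile scaling, library size only and both FPKM fits, and leaving out samples gave 0 to 1. Gclm brought glutathione synthesis lower to 1 in place of 2 under DESeq2, limma-voom, the stricter filter of 50 counts in 3 samples and the replicate block, and leaving out samples gave 1 to 2. Nfe2l2 brought NRF2 and KEAP1 higher to 0 under library size only and both FPKM fits (pseudocounts 1 and 0.1, mean FPKM of at least 0.5). The cause of these shifts was not tested.

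Summed CPM in place of FPKM gives long transcripts more weight and also applies the TMM factors, which the FPKM values lack. The log2 ratio was then 1.54 in place of 1.20 for all members, 2.12 in place of 2.04 for transferases and 0.47 in place of 0.18 for glutathione synthesis. It was 0.86 in place of 0.76 for thioredoxin and peroxiredoxin, 2.43 in place of 2.02 for superoxide dismutases and catalase, and 0.087 in place of 0.012 for NRF2 and KEAP1. Length weighting and scaling were not separated here. The median of all genes was -0.08 with library size only and -0.07 on log2(FPKM + 1), against 0.0046, so changes of that size depend on scaling. Same-numbered samples deviated from their group means with correlations of -0.00063, 0.019 and -0.0089, so the numbers were not taken as pairs. CYSP 1 and CYSP 3 did not correlate best with their own number. The replicate block gave 4773 genes higher and 4712 lower, and 27 members higher and 5 lower. Depth limits the genes with few counts, such as Gstm2, with 43 over the CYSP samples and 40 over the CK samples.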
